A study of Arabidopsis thaliana with 20 samples.

Results

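Nitrate is both a nitrogen source and a signal that promotes germination. The genes described here are the 10 *Arabidopsis* genes for the high-affinity nitrate transporters NRT2.1 to NRT2.7, the dual-affinity transporter NRT1.1 and the nitrate reductases NIA1 and NIA2, of 33557 genes in the expression table. They were chosen by gene identity, by a person or model that already knew results of these data, among them the large difference of NRT2.6 with bacterial extract in WT seeds. The levels are therefore given as a description. Each gene has 1 value per group, which pools both biological replicates of that group, so the spread between replicates is not known from the values used here and no SD or test is given.

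Seeds of the *Δdella* quintuple mutant, which combines *rgl2-SK54*, *rgl1-SK62* and *rgl3-3* with *gai-t6* and *rga-28*, and WT seeds, both of the Col-0 background, were cultured for 20 hr before RNA was taken from whole seeds. DELLA proteins are the repressors of germination that gibberellin (GA) removes. Within each genotype the groups were 5 µM paclobutrazol (PAC, an inhibitor of GA synthesis), 5 µM PAC with 10 µM GA, 0.7 mg/mL of *PAO1* extract, the extract with 10 µM GA, and germination medium alone (MS). The extract is the filtered, lyophilised culture medium of *Pseudomonas aeruginosa* strain PAO1, a crude mixture without bacteria. All 10 groups were on MS medium, whose salts supply nitrate and ammonium. The bacteria had been grown in a solution of MS salts and succinate, so the extract may have added such salts to the extract groups. No group received lyophilised medium in which no bacteria had grown. The part of the medium in the differences with extract was therefore not tested. Levels are in FPKM, fragments scaled to transcript length and to library size, so they are per length and can be compared between genes. Differences are in log2(FPKM + 1), where 1 FPKM is added so that very low values do not give large differences, and a difference counts as 2-fold from 1 on that scale. For low values this is stricter than a 2-fold ratio of FPKM.

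The NRT2 proteins import nitrate when it is scarce, and NRT2.1 does most of this in roots together with a small partner protein. NRT2.5 is known from nitrogen-starved plants, NRT2.6 from plants in contact with bacteria, among them the pathogen *Erwinia amylovora*, and NRT2.7 from the vacuole membrane of seeds, where it loads nitrate into storage. NRT1.1 transports nitrate at high and low concentrations and also senses it. NIA1 and NIA2 reduce nitrate to nitrite with the help of a molybdenum cofactor. In germinating seeds, nitrate is known to act through the transcription factor NLP8 and the abscisic acid hydroxylase CYP707A2.

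The values of the mutated genes matched the genotype labels. The FPKM of the 5 mutated DELLA genes summed to between 52.0 and 61.8 in the *Δdella* groups, against 277 to 438 in the WT groups, and each of the 5 was lower in every *Δdella* group than in every WT group. All 6 seed storage markers and both endosperm markers were above 0 in every group. The storage markers differed widely: their sum was between 77.0 and 172 FPKM in *Δdella* groups, against 423 to 8862 FPKM in WT groups, with the highest WT value on PAC. The sum of the endosperm markers, EPR1 and MFT, was between 359.9 and 452 FPKM in *Δdella* groups and between 649.8 and 1233 FPKM in WT groups. EPR1 made up nearly all of it, as MFT was at most 0.677 FPKM in *Δdella* groups and 19.7 FPKM in WT groups. The sum of the green seedling markers, LHCB1.3 and RBCS1A, overlapped between the genotypes. It was between 1202 and 1323 FPKM in *Δdella* groups and between 1160 and 1972 FPKM in WT groups. RBCS1A made up nearly all of this sum. LHCB1.3 by itself did not overlap, at 10.6 to 16.6 FPKM in *Δdella* groups and 6.17 to 10.4 FPKM in WT groups. Of 17822 genes with at least 1 FPKM in 1 group, 36.4% had no overlap between the genotypes in either direction. In RNA of whole seeds, fewer cells of a type and less RNA per cell cannot be told apart.

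The members lie on chromosomes 1, 3 and 5 in TAIR10 coordinates. NRT2.1 (AT1G08090, chr1:2524076-2526164) and NRT2.2 (AT1G08100, chr1:2527170-2529120) are neighbours, and so are NRT2.4 (AT5G60770, chr5:24444396-24447026) and NRT2.3 (AT5G60780, chr5:24450839-24452756). NRT2.5 (AT1G12940) is at chr1:4416405-4418590, NRT2.6 (AT3G45060) at chr3:16477561-16479482, NRT2.7 (AT5G14570) at chr5:4694626-4697078, NRT1.1 (AT1G12110) at chr1:4105233-4109545, NIA1 (AT1G77760) at chr1:29235803-29239445 and NIA2 (AT1G37130) at chr1:14158527-14161938. The coding sequence of NRT2.6 is 1629 bases long and was closest to that of NRT2.3, with 81.4% of aligned positions identical, against 52.5% to 67.6% with the other 5 NRT2 genes. NRT2.1 and NRT2.2 were the most similar pair, at 88.1%, and NIA1 and NIA2 shared 72.3%. Reads were 50 bases long. Of the 50-base windows of the annotated transcripts, 8.44% of those of NRT2.1 and 10.5% of those of NRT2.2 were also in the other of this pair, and 0.998% of those of NRT2.5 were in another gene. NRT2.6, NRT2.7, NRT1.1, NIA1 and NIA2 had no 50-base window in the transcript of another gene, so a read of that length within them matches no other annotated transcript exactly.

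The 250 bases before the annotated start are shown for NRT2.6, the member 2-fold higher with extract in WT seeds, and for NRT1.1, NIA1 and NIA2, which varied together across the groups. They were read from the RefSeq assembly TAIR10.1 in the direction of transcription, at chr3:16479560-16479809, minus strand (NRT2.6), chr1:4104973-4105222, plus strand (NRT1.1), chr1:29239485-29239734, minus strand (NIA1) and chr1:14158202-14158451, plus strand (NIA2). Capitals mark the letters ACGTG, the core of the abscisic acid response element, and TTGAC, the core of the W-box bound by WRKY factors, on either strand.
NRT2.6: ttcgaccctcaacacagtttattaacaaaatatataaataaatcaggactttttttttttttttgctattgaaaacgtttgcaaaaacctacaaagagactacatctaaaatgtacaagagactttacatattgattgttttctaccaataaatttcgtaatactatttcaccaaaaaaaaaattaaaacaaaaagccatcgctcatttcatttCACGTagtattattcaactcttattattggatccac
NRT1.1: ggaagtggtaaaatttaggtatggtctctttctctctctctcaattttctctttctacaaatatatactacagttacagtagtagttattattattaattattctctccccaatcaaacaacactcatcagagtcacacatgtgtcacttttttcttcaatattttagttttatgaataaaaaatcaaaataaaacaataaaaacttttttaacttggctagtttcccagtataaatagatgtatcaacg
NIA1: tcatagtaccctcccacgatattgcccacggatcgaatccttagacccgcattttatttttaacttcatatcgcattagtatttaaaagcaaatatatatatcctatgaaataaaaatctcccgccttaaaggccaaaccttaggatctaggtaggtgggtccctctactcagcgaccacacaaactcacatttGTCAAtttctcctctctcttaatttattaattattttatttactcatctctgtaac
NIA2: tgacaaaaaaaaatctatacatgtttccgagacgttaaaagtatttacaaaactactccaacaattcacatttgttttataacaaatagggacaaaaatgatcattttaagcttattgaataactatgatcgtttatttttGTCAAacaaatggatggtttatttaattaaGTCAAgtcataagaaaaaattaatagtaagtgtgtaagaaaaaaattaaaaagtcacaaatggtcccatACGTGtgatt

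Among these 4 windows, ACGTG was found in those of NRT2.6 and NIA2, and 22.9% of the windows of 27443 protein-coding genes hold it. TTGAC was found in those of NIA1 and NIA2, and 44.9% of all windows hold it. AAGAG, a short part of the nitrate-responsive element, was in those of NRT2.6, NRT1.1 and NIA1 and in 51.7% of all windows. The longer part of that element, TGACCCTT, was in none of the windows of the 10 members and in 0.426% of all windows. TAACAA, the core of the gibberellin response element, was in the windows of NRT2.6 and NIA2 and in 30.8% of all windows. CACGTG, the G-box, whose letters include ACGTG, was in none of the 10 and in 6.49% of all, and CATGCA, the core of the RY element of seed genes, was in none of these 4 and in 8.43% of all. Matches were sought on both strands and say only that these letters stand in this window.

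The 10 members fell into a set at or near 0 and an expressed set in seeds. NRT2.1, NRT2.2 and NRT2.3 were listed at 0 FPKM in all 10 groups. NRT2.4 was listed at 0 in 9 groups and at 0.0181 FPKM in *Δdella* seeds on MS. NRT2.5 was above 0 in 9 groups, but at most 0.1 FPKM in *Δdella* seeds and 0.238 FPKM in WT seeds. A value of 0 says only that the gene is listed so, as the number of reads is not known from the table. The other 5 members reached 1 FPKM in every group, and the differences below are for them.

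On the per-length scale, NRT2.7 was the most abundant member in the 5 *Δdella* groups and NIA1 in the 5 WT groups. Over the *Δdella* groups the median was 112 FPKM for NRT2.7, 95.7 FPKM for NIA1, 20.3 FPKM for NRT1.1, 8.45 FPKM for NIA2 and 5.68 FPKM for NRT2.6. Over the WT groups it was 118 FPKM for NRT2.7, 224 FPKM for NIA1, 42.9 FPKM for NRT1.1, 25.7 FPKM for NIA2 and 6.91 FPKM for NRT2.6. Without replicate values, whether neighbours in this order differ beyond their spread cannot be said.

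**Figure D1:**
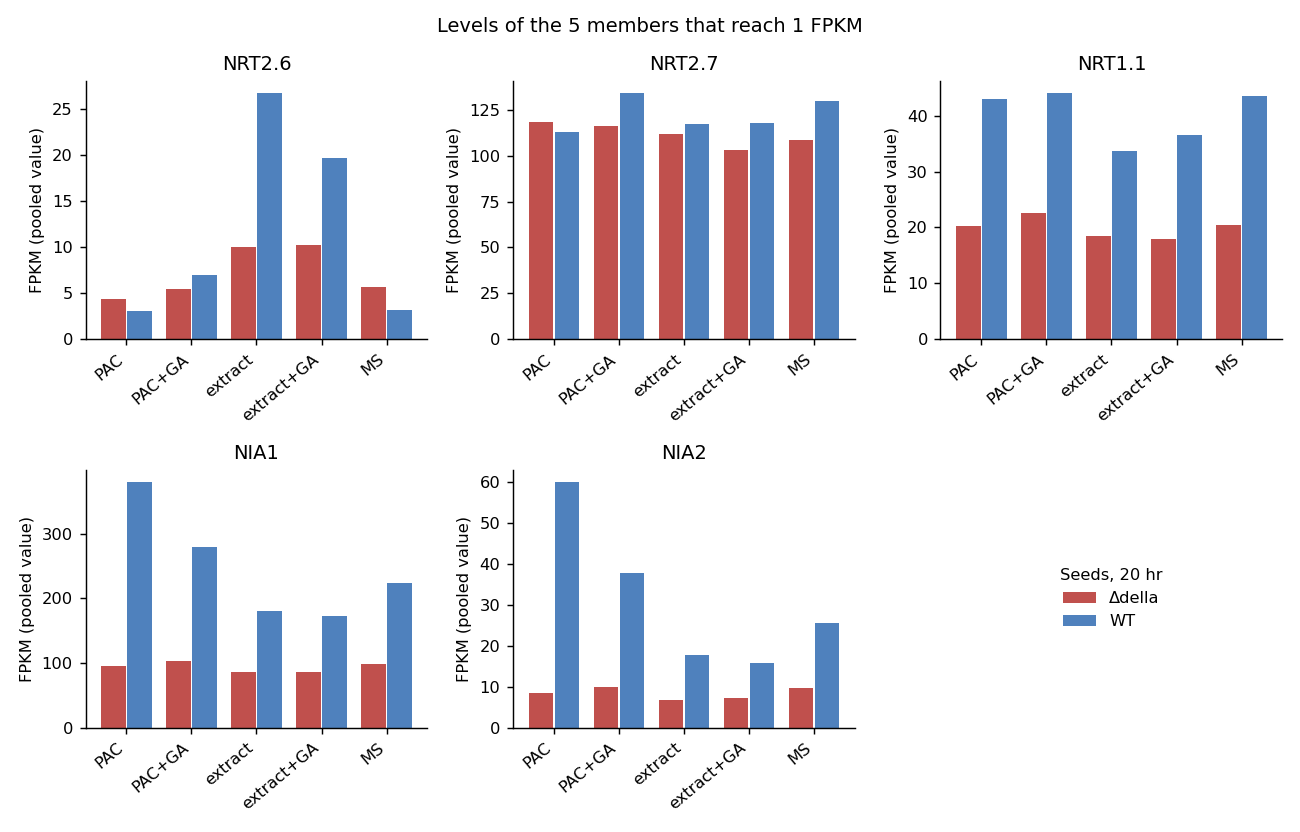
Levels of the 5 expressed members in FPKM (y axes, each from 0) in *Δdella* (left bar) and WT (right bar) seeds under each condition (x axes). Bars are the authors' pooled values, 1 per group, with no error available. NRT2.6 was highest in WT seeds on extract (26.8 FPKM), and all *Δdella* bars of NRT1.1, NIA1 and NIA2 were below all WT bars.

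With extract, NRT2.6 in WT seeds was the only member at least 2-fold from MS. In *Δdella* seeds it was at 4.37 FPKM on PAC, 5.39 on PAC and GA, 10.1 on extract, 10.3 on extract and GA, and 5.68 on MS. In WT seeds it was at 2.99 FPKM on PAC, 6.91 on PAC and GA, 26.8 on extract, 19.7 on extract and GA, and 3.10 on MS. In both genotypes the 2 extract groups were above the 3 groups without extract, and the 2 highest of all 10 values were those of WT seeds with extract. Over 17822 genes with at least 1 FPKM in 1 group, 12.2% had both extract groups outside the range of the other 3, in the same direction in both genotypes.

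Between extract and MS in WT seeds, NRT2.6 was 8.62 times as high, a difference of 2.76 in log2(FPKM + 1), the 19th highest of 16744 genes compared. It was the only 2-fold member of the 5 that reached 1 FPKM, where 1.56% of all genes compared were 2-fold apart. With extract and GA the level in WT seeds was 6.34 times that on MS (log2 difference 2.33, the 28th highest of 16765 genes). Again 1 of the 5 members compared was 2-fold apart, against 1.57% of all genes compared. Of the storage markers, 4 of 6 were at least 2-fold higher on extract than on MS in WT seeds, and so was 1 of the 2 endosperm markers, MFT (1.12). With extract and GA in WT seeds, none of the 6 storage markers was 2-fold higher and 2 were 2-fold lower, and neither endosperm marker was 2-fold apart.

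In *Δdella* seeds the difference of NRT2.6 was smaller, 0.73 with extract and 0.75 with extract and GA. These ranked 264th of 17056 and 265th of 17070 genes from the highest, and neither was 2-fold. Of the storage markers, 2 of 6 were 2-fold higher there with extract, OLEO1 (1.13) and OLEO2 (1.06), and 2 of 6 with extract and GA, CRA1 (1.27) and OLEO1 (1.21). The part of these markers in the values of NRT2.6 was not tested. None of the 5 members compared was 2-fold apart in either comparison, where 1.51% of all genes were with extract and 1.5% with extract and GA. The difference of the extract response between genotypes, *Δdella* minus WT, was -2.03 with extract and -1.58 with extract and GA for NRT2.6. It lay between 0.03 and 0.26 for NRT2.7, NRT1.1, NIA1 and NIA2. These differences were not tested, since there is 1 value per group.

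**Figure D2:**
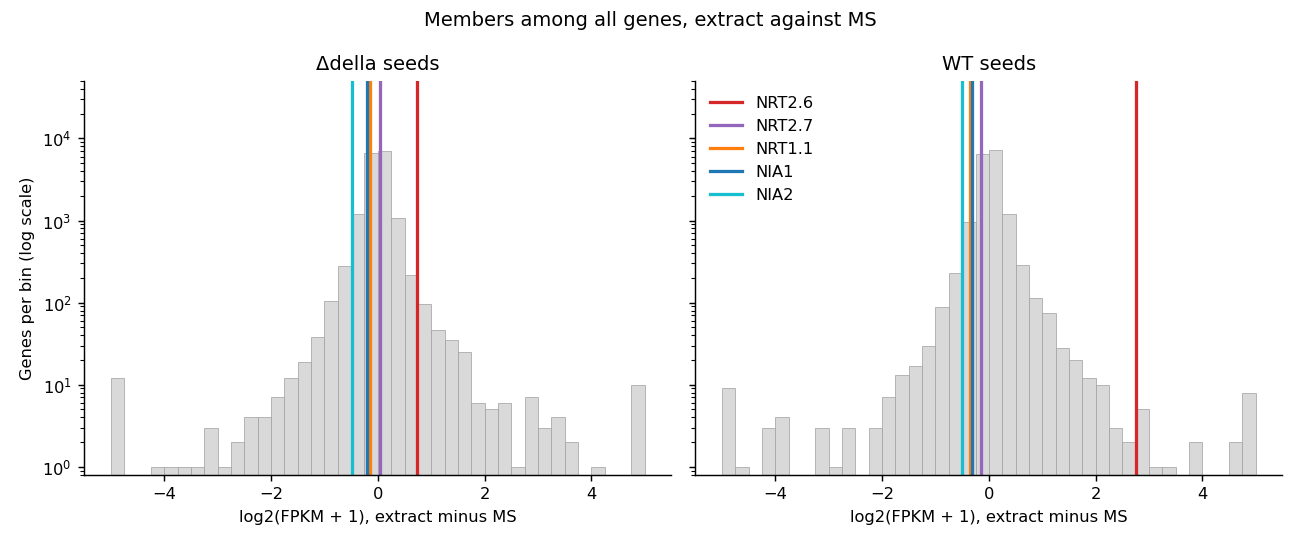
Distribution of the difference of extract from MS in log2(FPKM + 1) (x axis) over all genes with at least 1 FPKM in 1 of the groups, as genes per bin on a log y axis, in *Δdella* (left) and WT (right) seeds. Differences beyond the ends are drawn in the outermost bins, and coloured lines are the members. NRT2.6 lies at 0.73 in *Δdella* and at 2.76 in WT seeds.

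The other 4 expressed members were a little lower or about level with extract. NIA2 was at 6.69 FPKM on extract and 7.15 on extract and GA, against 9.72 on MS, in *Δdella* seeds, and at 17.8 and 15.9 FPKM, against 25.7 on MS, in WT seeds. Its log2 differences were -0.48 and -0.40 in *Δdella* and -0.51 and -0.66 in WT seeds. For NIA1 they were -0.21 and -0.19 in *Δdella* and -0.32 and -0.37 in WT seeds, and for NRT1.1 -0.14 and -0.18 in *Δdella* and -0.36 and -0.24 in WT seeds. In both genotypes each of these 3 genes was lower in the 2 extract groups than in the 3 others, a pattern that, in either direction, 12.2% of 17822 genes had, and no difference from MS was 2-fold. NRT2.7 differed from MS by between -0.15 and 0.04 with extract, alone or with GA.

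On PAC in WT seeds, NIA2 was at least 2-fold higher than on MS and NIA1 was higher by less than that. NIA1 was at 95.7 FPKM on PAC, 102 on PAC and GA, 85.5 on extract, 86.5 on extract and GA, and 99.1 on MS in *Δdella* seeds. In WT seeds it was at 380 FPKM on PAC, 279.8 on PAC and GA, 179.8 on extract, 173 on extract and GA, and 224 on MS. The WT values spread over a wider range than the *Δdella* values, and the highest was that on PAC. NIA2 was at 8.45 FPKM on PAC, 9.82 on PAC and GA and 9.72 on MS in *Δdella* seeds. In WT seeds NIA2 was at 60.1 FPKM on PAC, 37.9 on PAC and GA and 25.7 on MS. Both genes had the order PAC, then PAC and GA, then MS in WT seeds, and no such order in *Δdella* seeds.

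NIA2 was 2.34 times as high on PAC as on MS in WT seeds (log2 difference 1.20), the only 2-fold member of the 5 compared, where 7.56% of all genes compared were 2-fold apart. NIA1 was 1.70 times as high (log2 difference 0.76), under the limit, and 12.3% of genes lay at least as far apart. In *Δdella* seeds the differences were -0.18 for NIA2 and -0.05 for NIA1. None of the 5 members compared was 2-fold apart there, against 0.794% of all genes. The 6 storage markers were each at least 2-fold higher on PAC than on MS in WT seeds, and none was in *Δdella* seeds. The endosperm marker MFT was at 0.198 FPKM on PAC and 0.137 on MS in *Δdella* seeds, and at 19.7 FPKM on PAC and 2.50 on MS in WT seeds (log2 difference 2.56). The other endosperm marker, EPR1, was under 2-fold in both genotypes. It was at 384 FPKM on PAC and 360 on MS in *Δdella* seeds, and at 1201 FPKM on PAC and 932 on MS in WT seeds. The part of these markers in the NIA values was not tested. NRT1.1, NRT2.6 and NRT2.7 were close to their MS levels on PAC in WT seeds, at -0.02, -0.04 and -0.20.

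With PAC and GA no member was 2-fold from MS in either genotype, where 0.974% of all genes were in WT and 0.741% in *Δdella* seeds. The largest difference was that of NRT2.6 in WT seeds, at 0.95 in log2(FPKM + 1) or 2.23 times as high by FPKM, the 99th highest of 16729 genes. The added 1 FPKM decides on which side of the limit it falls. In *Δdella* seeds this difference was -0.07. NIA2 was 0.54 and NIA1 0.32 above MS in WT seeds, and 0.01 and 0.05 in *Δdella* seeds.

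**Figure D3:**
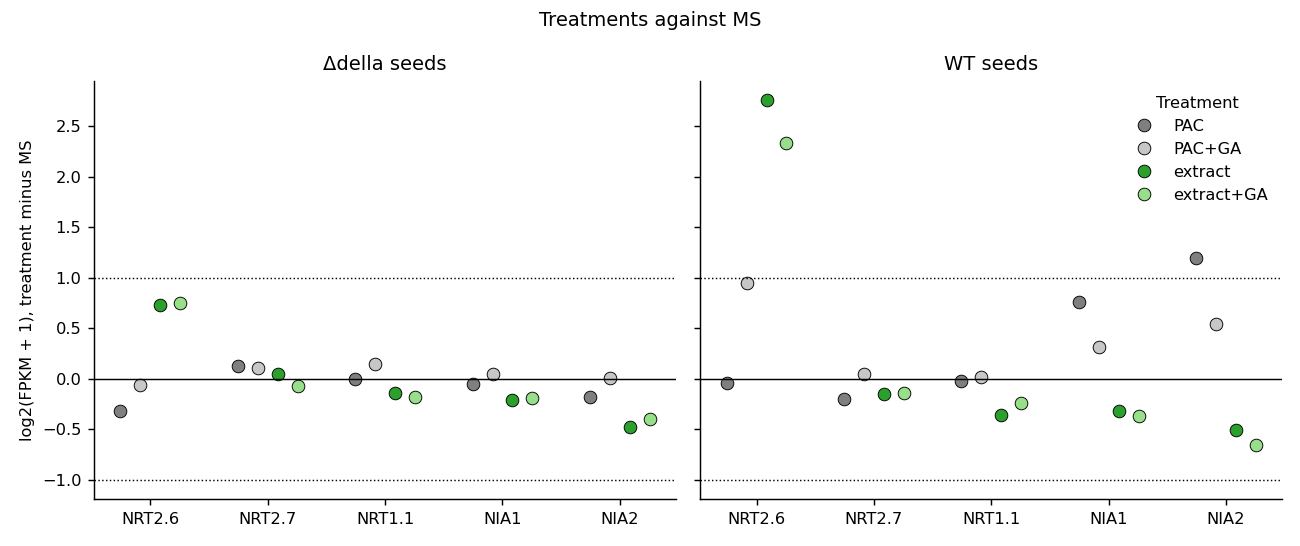
Difference of each treatment from MS in log2(FPKM + 1) (y axis) for the 5 expressed members (x axis) in *Δdella* (left) and WT (right) seeds. Points are differences of the authors' pooled values, with no error available, and dotted lines mark 2-fold. In WT seeds NRT2.6 with extract (2.76 and 2.33) and NIA2 with PAC (1.20) lie above the line, and in *Δdella* seeds no point lies beyond a line.

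GA added to PAC or to extract left all members under 2-fold. In WT seeds, PAC and GA against PAC gave 0.99 for NRT2.6, which was 2.31 times as high by FPKM, -0.65 for NIA2 and -0.44 for NIA1, and 4.98% of all genes were 2-fold apart. Extract and GA against extract gave -0.43 for NRT2.6 and between -0.15 and 0.12 for the others, and 1.42% of all genes were 2-fold apart. In *Δdella* seeds all differences were between -0.03 and 0.25 for GA added to PAC and between -0.12 and 0.08 for GA added to extract. The shares of all genes there were 0.806% and 0.789%. The comparisons within a genotype share groups and are not independent of each other.

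NRT1.1, NIA1 and NIA2 were at lower levels in *Δdella* seeds. NRT1.1 was at 20.3 FPKM on PAC, 22.6 on PAC and GA, 18.4 on extract, 17.8 on extract and GA, and 20.3 on MS in *Δdella* seeds. In WT seeds it was at 42.9 FPKM on PAC, 44.0 on PAC and GA, 33.6 on extract, 36.6 on extract and GA, and 43.5 on MS. For NRT1.1, NIA1 and NIA2 alike, all 5 *Δdella* values were below all 5 WT values. This is common in the table, since 36.4% of 17822 genes had no overlap between the genotypes in either direction. All 3 genes were also lower with extract in both genotypes. This joint pattern was counted only in the lower direction, the one these members show, and 1.43% of the genes had it. The share is a description and no measure of how unusual the members are. The 3 genes varied together (Pearson's r between 0.92 and 0.99), so they are not separate cases.

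On MS, *Δdella* minus WT was -1.31 for NIA2, -1.17 for NIA1 and -1.06 for NRT1.1 in log2(FPKM + 1), so that 3 of the 5 members compared were at least 2-fold lower, where 5.95% of all genes compared were 2-fold apart. On PAC the differences were -2.69 for NIA2, with 8.45 FPKM in *Δdella* and 60.1 FPKM in WT seeds, -1.98 for NIA1 and -1.05 for NRT1.1. Again 3 members were 2-fold lower, against 15.9% of all genes 2-fold apart. On PAC and GA, NIA2 (-1.84) and NIA1 (-1.44) were 2-fold lower and NRT1.1 was at -0.93, with 7.3% of all genes 2-fold apart.

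On extract, *Δdella* minus WT was -1.33 for NRT2.6, with 10.1 FPKM in *Δdella* and 26.8 FPKM in WT seeds, -1.29 for NIA2 and -1.06 for NIA1. These 3 members were 2-fold lower, against 6.5% of all genes 2-fold apart, and NRT1.1 was at -0.84. On extract and GA, NIA2 was the only member past the limit, at -1.05, where 3.77% of all genes were. NRT1.1, with 17.8 FPKM in *Δdella* and 36.6 FPKM in WT seeds, and NIA1, with 86.5 FPKM in *Δdella* and 173 FPKM in WT seeds, lay just inside it. By FPKM without the added 1, the WT levels were 2.05 times the *Δdella* level for NRT1.1 and 2.00 times for NIA1. The sign for NRT2.6 depended on the condition: it was 0.70 on MS and 0.43 on PAC, but -0.31 on PAC and GA and -0.87 on extract and GA. The storage markers were lower in *Δdella* seeds too, 6 of 6 by at least 2-fold in each condition other than extract and GA, where 3 of 6 were. Both endosperm markers were 2-fold lower in *Δdella* seeds in the same 4 conditions. Of the green seedling markers, LHCB1.3 went the other way, 2-fold higher in *Δdella* seeds on PAC (1.19) and on extract (1.21). It was under 2-fold in the other conditions, and RBCS1A was under 2-fold in all of them. The part of these markers in the values of the members was not tested.

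**Figure D4:**
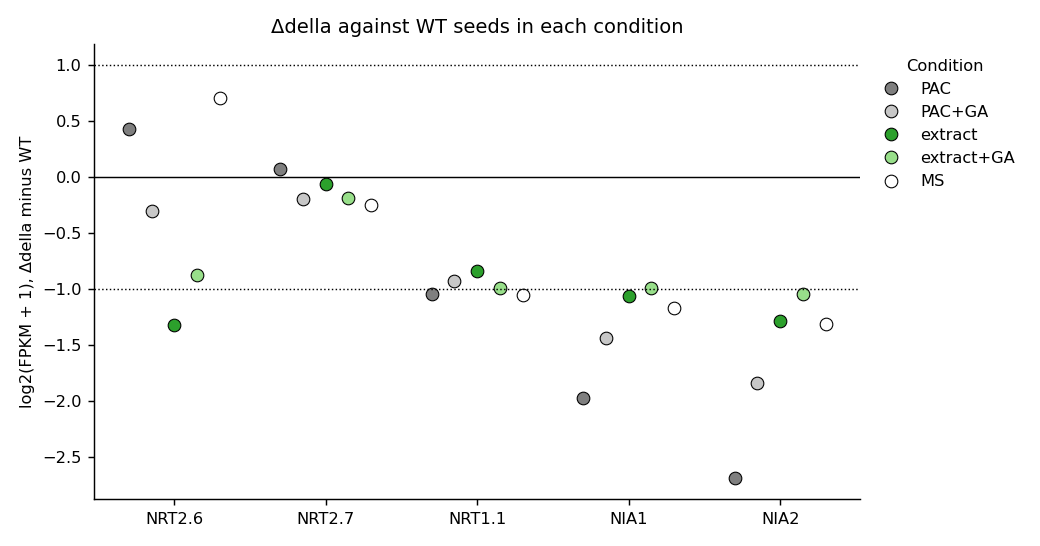
Difference of *Δdella* from WT seeds in log2(FPKM + 1) (y axis) for the 5 expressed members (x axis) in each condition (shading). Points are differences of the authors' pooled values, with no error available, and dotted lines mark 2-fold. NRT1.1, NIA1 and NIA2 are below 0 in all 5 conditions, with NIA2 on PAC lowest at -2.69, and NRT2.6 runs between 0.70 on MS and -1.33 on extract.

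The share of NIA2 in the summed FPKM of both reductases was highest in WT seeds on PAC. It was 8.11% on PAC, 8.76% on PAC and GA, 7.26% on extract, 7.63% on extract and GA, and 8.94% on MS in *Δdella* seeds. In WT seeds it was 13.7% on PAC, 11.9% on PAC and GA, 9.0% on extract, 8.40% on extract and GA, and 10.3% on MS, the order in which the level of NIA1 ran in these seeds, from PAC as the highest to extract and GA as the lowest. NIA1 thus made up most of the reductase transcript in every group. The sum of both was between 92.2 and 112 FPKM in *Δdella* groups and between 189 and 440 FPKM in WT groups.

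NRT2.7, the seed vacuole transporter, varied least. It was at 119 FPKM on PAC, 116 on PAC and GA, 112 on extract, 103 on extract and GA, and 108 on MS in *Δdella* seeds. In WT seeds it was at 113 FPKM on PAC, 134 on PAC and GA, 117 on extract, 118 on extract and GA, and 129.7 on MS. The genotypes overlapped, the highest value was 1.3 times the lowest, and at least 95.6% of the genes in the table were below NRT2.7 in each group.

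Across the 10 groups, NIA1 and NIA2 had Pearson's r of 0.99 in log2(FPKM + 1), NRT1.1 had 0.96 with NIA1 and 0.92 with NIA2, and NRT2.6 lay between -0.28 and -0.08 with the other 4. These are descriptions over 10 groups, 5 of each genotype, all on MS medium. Of 14145 genes with at least 5 FPKM in 1 group, those most like NRT2.6 were AT1G29220 (r = 0.95), HGPT (0.95), a hypoxanthine-guanine phosphoribosyltransferase gene, and HK1 (0.94), a histidine kinase gene linked to osmosensing. The amplitude was much smaller for AT1G29220, with 34.3 FPKM on extract and 29.6 on MS in WT seeds, and smaller for HK1, with 8.86 FPKM on extract and 4.33 on MS in WT seeds. Those most like NIA2 were COPT6, a copper transporter gene (1.00), ZTL, a clock-associated F-box gene (0.99), and TRXF1, a chloroplast thioredoxin gene (0.99). COPT6 was at 3.21 FPKM on PAC and 3.60 on MS in *Δdella* seeds, and at 21.5 FPKM on PAC and 9.08 on MS in WT seeds. Those most like NIA1 were AT4G28025, AT2G34750 (both 1.00) and DGAT3 (0.99). Here too the amplitude could be smaller than that of the member. In WT seeds AT4G28025 was at 58.6 FPKM on PAC and 47.0 on MS, and AT2G34750 at 118 and 102 FPKM. ZTL was at 22.6 FPKM on PAC and 17.9 on MS in WT seeds. Those most like NRT1.1 were NADK2 (0.99), ILP1 and ROT3 (both 0.98), and those most like NRT2.7 were AT3G56360, PCK1 and PXN (each 0.93).

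Other genes of the pathway were taken from 4 lists, of which 9 of 17 other nitrate transporters and channels, 29 of 32 partners and regulators of nitrate assimilation, 14 of 20 genes of ammonium transport and assimilation and 6 of 6 molybdenum cofactor genes reached 1 FPKM in 1 group. With extract in WT seeds none of them was 2-fold from MS, nor was any with PAC and GA. With extract and GA only the scaffold protein gene BT2 was, at -1.06. The shares of all genes 2-fold apart were 1.56%, 0.974% and 1.57% in these 3 comparisons. By FPKM without the added 1, ASN1 was more than 2-fold higher with extract, at 2.99 against 1.01 FPKM on MS. With extract and GA, NRT3.1 was likewise higher, at 12.7 against 6.01 FPKM on MS, and CLCb lower, at 0.621 against 1.59 FPKM. In *Δdella* seeds none of the list genes was 2-fold from MS in any of the 4 treatments, where between 0.741% and 1.51% of all genes were. At shares this low, counts at or near 0 are not a result about these lists. With PAC in WT seeds 1 transporter was 2-fold higher and 1 lower, of 8 compared, and 2 of 28 partners and regulators were lower, where 7.56% of all genes were 2-fold apart. The higher one was NPF6.4, with 5.11 FPKM on PAC and 1.99 FPKM on MS (log2 difference 1.03). The lower ones were CLCa (2.65 FPKM on PAC and 8.71 on MS, -1.41), a vacuolar nitrate/proton exchanger, LBD37 (4.76 FPKM on PAC and 12.9 on MS, -1.27), a repressor of nitrogen-responsive genes, and CYP707A2 (2.6 FPKM on PAC and 6.68 on MS, -1.09). No ammonium or cofactor gene was 2-fold apart. Over the genes compared, the list medians with PAC were 0.46 for the transporters and 0.32 for the 6 cofactor genes, which the nitrate reductases depend on, 0.01 for the partners and regulators and 0.07 for the ammonium genes, beside 0.01 over all genes.

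Between *Δdella* and WT seeds on PAC, 3 of 9 other transporters were 2-fold higher and 4 lower, 3 of 28 partners and regulators higher and 3 lower, and 1 of 14 ammonium genes higher and 2 lower, where 15.9% of all genes were 2-fold apart. Among the higher ones, CLCa was at 19.3 FPKM in *Δdella* and 2.65 FPKM in WT seeds (log2 difference 2.47), and CYP707A2 was at 14.7 FPKM in *Δdella* and 2.6 FPKM in WT seeds. Among the lower ones were NPF6.4 (-1.46) and NLP8 (-1.16), with 15.2 FPKM in *Δdella* and 35.2 FPKM in WT seeds. On MS, 2 of 8 other transporters were 2-fold higher, CLCa (1.18) and NPF1.1 (1.28), 1 of 13 ammonium genes was higher, and no partner or regulator was 2-fold apart, where 5.95% of all genes were. On PAC and GA, 2 of 8 transporters and 2 of 29 regulators were higher and 1 regulator lower (7.3% of all genes). On extract, 3 of 7 transporters were higher and 1 of 13 ammonium genes lower (6.5%). On extract and GA, 2 of 7 transporters were higher (3.77%). NPF1.1 was 2-fold higher in all 5 conditions (2.30 on PAC, 1.05 on extract and GA), and NLP8 2-fold lower on PAC only. The 6 cofactor genes were under 2-fold in all 17 comparisons, with a median of -0.18 on MS and -0.35 on PAC in *Δdella* against WT seeds. BT2, ASN1, NRT3.1, CLCb, NPF1.1, GLN1;2, AMT1;2 and the genes named between the genotypes were chosen after their values were seen.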

How the data were processed

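Total RNA of whole seeds was sequenced by the authors as stranded mRNA libraries with single-end reads of 50 bases, mapped to TAIR10 with TopHat. The deposited table gives FPKM as Cuffdiff wrote them with both biological replicates of a group pooled, for 33557 genes, 10 groups (20 samples) and 45 pairs of groups. The annotation release and the tool versions were not given in the sources used here. In the table, 4 columns of the authors' own comparisons (log2 fold change, test statistic, p and q) were not used. A group's FPKM was taken from the columns of both sides of a pair, by the group name in its row, and was identical in all 9 rows of a gene. FPKM summed to between 882351 and 988764 per group, and read depth is unknown.

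Differences of log2(FPKM + 1) were computed over genes with at least 1 FPKM in 1 of the groups compared, for 17 comparisons, and counted at 2-fold. No test was made, since the FPKM used are 1 pooled value per group and the columns of the authors' comparisons were left out. The study's own limit was a log2 ratio, without an added FPKM, together with a false discovery rate. Members and lists were chosen with earlier results of these data known. All 10 members are named, with, for each member of at least 5 FPKM, the 3 genes of highest Pearson's r, and at most the 3 largest list genes that were 2-fold apart with extract or PAC against MS. From the lists 5 genes were left out, because the annotation did not give the name under which they had been listed. All 27973 loci that matched a RefSeq gene of TAIR10.1 by identifier overlapped it, and 42.6% shared a start or an end, so TAIR10.1 was taken to have the coordinates of TAIR10. Identity is over all columns of a global alignment of the longest coding sequences, and windows were sought on both strands of all annotated transcripts. Symbols came from the table and RefSeq. The functions were tested on simulated data. Computations used Python 3.11.15, numpy 2.4.6, pandas 2.3.3, biopython 1.88 and matplotlib 3.10.9.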

Additional observations from a re-analysis of the deposited data

Results flagged for a closer look

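The differences from MS of NIA2 on PAC and of NRT2.6 on PAC and GA had opposite signs in the genotypes. They lay at least 1 apart in log2(FPKM + 1). The share of all genes that meet this rule was not computed. NIA2 was 0.18 lower on PAC than on MS in *Δdella* seeds and 1.20 higher in WT seeds, a difference of -1.38 (*Δdella* minus WT). NRT2.6 was 0.07 lower on PAC and GA than on MS in *Δdella* seeds and 0.95 higher in WT seeds, a difference of -1.01. Neither difference was tested, because each group has 1 pooled value, and the *Δdella* values lie close to their MS levels. In *Δdella* seeds 17.2% of the genes compared were at least as far from MS as NIA2 on PAC. For NRT2.6 on PAC and GA it was 53.4%, so its sign there means little.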

How the results depend on the processing

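The counts of member differences of at least 2-fold were 3 for treatments against MS in WT seeds, 0 in *Δdella* seeds, 12 for *Δdella* against WT seeds and 0 for GA added to PAC or extract. A limit of 1.5-fold gave 6, 2, 18 and 2, and the share of all genes at that limit was not computed. At 2-fold, the share of all genes in a single comparison was 0.974% to 7.56% for WT treatments and 0.741% to 1.51% for *Δdella* treatments. It was 3.77% to 15.9% between the genotypes and 0.789% to 4.98% for added GA. The 12 came from NIA1, NIA2, NRT1.1 and NRT2.6, counted again in each condition, and are not separate results. With a pseudocount of 0.1 FPKM, and with none, NRT2.6 on PAC and GA against PAC in WT seeds passed 2-fold, so the count for added GA was 1. NRT2.6 on PAC and GA against MS in WT seeds, and NRT1.1 and NIA1 in *Δdella* against WT seeds on extract and GA, also passed 2-fold under both. The counts for treatments in WT seeds and for the genotypes were then 4 and 14. The shares of all genes under these pseudocounts were not computed, so the changes in count are not a result about the members. No filter on low values, at least 1 FPKM in both groups, upper-quartile scaling and median-ratio scaling gave the same 4 counts as the values given. Of 340 single values under another pseudocount or scaling, 332 kept their side of the limit, 8 passed it and none took another sign. No paired analysis was possible because the table holds no values of single replicates, and leaving out a replicate was not run for the same reason. Read depth is unknown, which limits what can be said of members listed at 0.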
